A study of Mus musculus with 24 samples.

Results

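The mitotic and G2/M genes described here are 41 symbols of the deposited count table, out of 24421 genes listed. They were chosen as a list of names: mitotic kinases and cyclins with their activators, chromosome and kinetochore proteins, spindle proteins, and proteins of cytokinesis and mitotic exit. The list was drawn up with earlier results of these data known. All 41 had counts in every library and passed the filter on low counts, which left 13761 genes for testing. Polyadenylated RNA came from MIN6 cells, a mouse insulinoma line that resembles the pancreatic beta cell and, unlike most beta cells in the adult islet, divides in culture. The cells were transfected with a plasmid for EIF2A-GFP, a fusion of the translation initiation factor EIF2A with green fluorescent protein, or with a plasmid for GFP, the control. Each construct was given 1 µM thapsigargin for 1 or 3 h, or the DMSO vehicle, written here as 0 h. Thapsigargin blocks the pump that loads calcium into the endoplasmic reticulum (ER) and so causes ER stress. The 6 groups, EIF2A at 0, 1 and 3 h and GFP at 0, 1 and 3 h, had 4 libraries each and grew in medium with 22.2 mM glucose. The share of cells that took up a plasmid is not given in the sources used here.

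Cells enter mitosis when CDK1, bound to a B-type or A-type cyclin and freed by CDC25 phosphatases, phosphorylates its targets. The kinetochore, a protein plate built on the centromere, then binds spindle microtubules under the watch of the spindle checkpoint, until the anaphase-promoting complex with CDC20 has cyclins and securin degraded and the cell divides. Most of these genes are transcribed late in the cell cycle, from promoters bound by the transcription factors B-MYB, FOXM1 and NF-Y with the MuvB complex. The RNA here is from a whole culture, so that a smaller share of dividing cells and less mRNA in each of them cannot be told apart.

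Total counts per library ran from 10.5 to 22.1 M counts for EIF2A and from 16.7 to 22.2 M counts for GFP, and the members had at least 357 counts in every library (Ttk). Levels are counts-per-million (CPM), scaled by the trimmed mean of M values (TMM). Eif2a, the gene on the plasmid, went against the labels in replicate 1. It had 80.3, 96.9 and 104.3 CPM at 0, 1 and 3 h in the libraries labelled EIF2A replicate 1, and 269.4, 361.2 and 358.1 CPM in those labelled GFP replicate 1. In replicates 2 to 4 it had 134.0 to 208.9 CPM in EIF2A libraries and 77.8 to 101.9 CPM in GFP libraries. The libraries of replicate 1 also stood apart over all genes, with a chi-square over degrees of freedom of 67.5 to 151 against libraries of their own group, where pairs among replicates 2 to 4 gave 1.32 to 20.1. Counts of members are therefore given with and without replicate 1, and group names follow the labels. The 8 beta cell markers were all present. Their summed level in EIF2A libraries was 91410 to 111300 CPM at 0 h, 81730 to 120600 CPM at 1 h and 55020 to 65450 CPM at 3 h. In GFP libraries it was 81190 to 105300 CPM, 69130 to 95940 CPM and 43420 to 63370 CPM at these times, so that the groups at 0 and 3 h did not overlap in either construct. The 4 alpha cell markers summed to 861.8 to 983.3 CPM in GFP libraries at 3 h and to 1425 to 1797 CPM at 0 h, and over all libraries to 624.8 to 2469 CPM. Over all libraries 5 duct markers summed to 311 to 1268 CPM and 6 macrophage markers to 9.55 to 97.4 CPM, and the part of any of these levels in the members' changes was not tested.

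Promoter sequences are shown first, because 2 short motifs recur before the start sites of mitotic genes. The CHR (cell cycle genes homology region), TTTGAA, is bound by MuvB complexes, and CCAAT by NF-Y. RefSeq promoter windows on GRCm38.p6 matched 34 of the 41 symbols. In the 250 bases before the start site, on either strand, TTTGAA was found for 14 of the 34 (41.2%), against 18.3% of 27025 genes with a window of that length. CCAAT was found for 26 (76.5%), against 37.5% of all genes, and both motifs for 13 (38.2%), against 7.34%. The last 150 bases before the start site are printed for 6 members that went different ways after thapsigargin, with each match in capitals. A match of the CHR reads TTTGAA or, where it lies on the other strand, TTCAAA. A match of CCAAT reads so or, where it lies on the other strand, ATTGG. Ndc80 and Bub1 rose and stayed up, Mki67 and Plk1 rose and fell back, and Ccnf and Ube2c fell.
Ndc80, chr17:71526858-71527007 (minus strand): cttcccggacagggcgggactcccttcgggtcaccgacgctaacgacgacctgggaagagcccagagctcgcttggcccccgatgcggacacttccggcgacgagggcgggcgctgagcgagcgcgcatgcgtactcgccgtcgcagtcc
Bub1, chr2:127831860-127832009 (minus strand): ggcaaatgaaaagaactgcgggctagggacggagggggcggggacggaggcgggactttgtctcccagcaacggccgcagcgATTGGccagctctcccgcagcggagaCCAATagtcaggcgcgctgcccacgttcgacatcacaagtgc
Mki67, chr7:135716380-135716529 (minus strand): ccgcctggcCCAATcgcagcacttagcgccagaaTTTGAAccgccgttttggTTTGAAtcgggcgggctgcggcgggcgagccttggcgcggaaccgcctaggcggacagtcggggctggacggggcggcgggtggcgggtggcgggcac
Plk1, chr7:122159285-122159434 (plus strand): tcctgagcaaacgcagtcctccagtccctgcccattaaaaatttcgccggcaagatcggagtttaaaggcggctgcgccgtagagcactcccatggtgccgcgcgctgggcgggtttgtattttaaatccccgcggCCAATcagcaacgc
Ccnf, chr17:24251410-24251559 (minus strand): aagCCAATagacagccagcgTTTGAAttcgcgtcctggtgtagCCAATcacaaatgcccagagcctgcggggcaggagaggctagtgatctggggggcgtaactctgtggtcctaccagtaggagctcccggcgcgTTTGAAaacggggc
Ube2c, chr2:164769779-164769928 (plus strand): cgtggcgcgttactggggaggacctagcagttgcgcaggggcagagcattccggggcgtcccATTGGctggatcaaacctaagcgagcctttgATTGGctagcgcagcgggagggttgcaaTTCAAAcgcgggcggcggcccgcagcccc
The stretch before Ndc80 holds neither motif, and those before Bub1 and Plk1 hold CCAAT without TTTGAA. Mki67, Ccnf and Ube2c have both, and in these stretches no match of one motif overlaps a match of the other. The 6 are examples, and other members differ from them. In the 250 bases before the start site Birc5 and Mad2l1, which fell, have neither motif. Prc1 and Ckap2, which rose and stayed up, have both. A link between motifs and course was not tested. A match is a string of letters and was not tested for binding.

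After 1 h of thapsigargin more of the 41 members were higher than lower, and between 1 and 3 h more were lower than higher. Because the list was drawn up with earlier results of these data known, its shares beside those of all genes only describe these members. With both constructs averaged, 18 of 41 members rose at 1 h and 5 fell, where 13.1% of all genes tested rose and 9.74% fell. Between 1 and 3 h, 1 member rose and 18 fell, against 15.6% and 12.9% of all genes. At 3 h against 0 h, 11 rose and 12 fell, against 26% and 23.6%. The median log2 fold change of the members was 0.13 at 1 h against 0 h, 0.02 at 3 h against 0 h and −0.20 at 3 h against 1 h. For all genes the medians were −0.01, −0.01 and 0.01. Of 80 further mitotic genes, described below, 14 rose and 20 fell between 1 and 3 h, with a median of −0.04. Without replicate 2, 3 or 4, the members that rose at 1 h numbered 11, 11 and 15 (5.54%, 5.17% and 7.91% of all genes), with 0 members that fell in each case. Those that fell between 1 and 3 h then numbered 11, 9 and 12 (5.33%, 5.14% and 7.7%). Summed over the 41 members, the level in EIF2A libraries was 5918 ± 110 CPM at 0 h, 6495 ± 280 CPM at 1 h and 5760 ± 287 CPM at 3 h (SD, n = 4 each). In GFP libraries the sum was 5846 ± 25.5 CPM at 0 h, 6474 ± 146 CPM at 1 h and 5616 ± 314 CPM at 3 h. A gene is said to have risen or fallen where the adjusted p, from edgeR's quasi-likelihood test with Benjamini-Hochberg adjustment over all genes, was under 0.05.

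The size of the later fall depends on the scaling. Scaling by library totals puts the median of all genes at 3 h against 1 h at 0.14 and that of the members at −0.07, and 8 members then fell and 3 rose, against 6.24% and 27.6% of all genes. The comparison of 3 h with 0 h gives 17 higher and 7 lower on that scale, against 34.9% and 15.4%. As a share of the deposited counts, the members took between 0.534 and 0.573% in EIF2A libraries at 0 h, between 0.56 and 0.674% at 1 h and between 0.564 and 0.635% at 3 h. In GFP libraries they took between 0.55 and 0.593% at 0 h, between 0.64 and 0.659% at 1 h and between 0.585 and 0.63% at 3 h. Without scaling, the members' share at 3 h was thus within or above its range at 0 h in 8 of 8 libraries. By summed CPM each construct's mean at 3 h was below that at 0 h by less than the SD at 3 h, and the replicates differed. Replicates 2 to 4 at 3 h had 5440 to 5784 CPM in EIF2A and 5363 to 5533 CPM in GFP. They lay below every 0 h library of their construct (5792 to 6037 CPM and 5813 to 5872 CPM). Replicate 1 at 3 h lay above every 0 h library, at 6131 CPM in EIF2A and 6074 CPM in GFP.

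Within EIF2A libraries 10 members rose and 0 fell at 1 h against 0 h, against 6.55% and 3.94% of all genes. Unadjusted p was under 0.05 for 19 members in that comparison and for 3262 of the 13761 genes tested. DESeq2 called 2 members lower, and 822 of all genes. At 3 h against 0 h, 9 rose and 10 fell in EIF2A libraries, against 19.6% and 16.6%, and at 3 h against 1 h, 1 rose and 10 fell, against 8.28% and 6.62%. Within GFP libraries 15 members rose and 1 fell at 1 h (background 5.78% and 2.39%). At 3 h against 0 h, 6 rose and 10 fell in GFP libraries (18.4% and 14.6%), and at 3 h against 1 h, 1 rose and 10 fell (5.49% and 4.28%). Without any one of replicates 2 to 4 at 0 or 1 h the GFP count at 1 h was 5 to 8 higher and 0 lower. The share of all genes in these fits is not given here. Calls over all genes drop too when libraries are left out. Without replicate 2 in every group, 2 members (4.88%) rose and 0 fell at 1 h in GFP, against 0.755% and 0.0363% of all genes. In EIF2A libraries the members that fell at 1 h were 2 without replicate 1 at 0 h and 4 without replicate 1 at 1 h. There too the share of all genes is not given.

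With all libraries, same-numbered libraries of a construct deviate together from their group means. Without replicate 1 they hardly do, with correlations of −0.03 to 0.33 and a median of 0.09. With the replicate number as a block within construct more calls pass. At 1 h against 0 h the block gave 22 higher and 7 lower in EIF2A libraries (background 21.9% and 23.3%), and 22 higher and 7 lower in GFP libraries (22.9% and 21.6%). Between 1 and 3 h it gave 3 higher and 22 lower in EIF2A (26.7% and 25.9%), and 1 higher and 26 lower in GFP (25.2% and 24.5%). With both constructs averaged, 28 members fell between 1 and 3 h under the block, against 30.6% of all genes, and 25 rose at 1 h, against 27.8%. Without replicate 1 and without the block, 27 fell between 1 and 3 h, against 28.3% of all genes, and 20 rose at 1 h, against 26.4%.

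**Figure D1:**
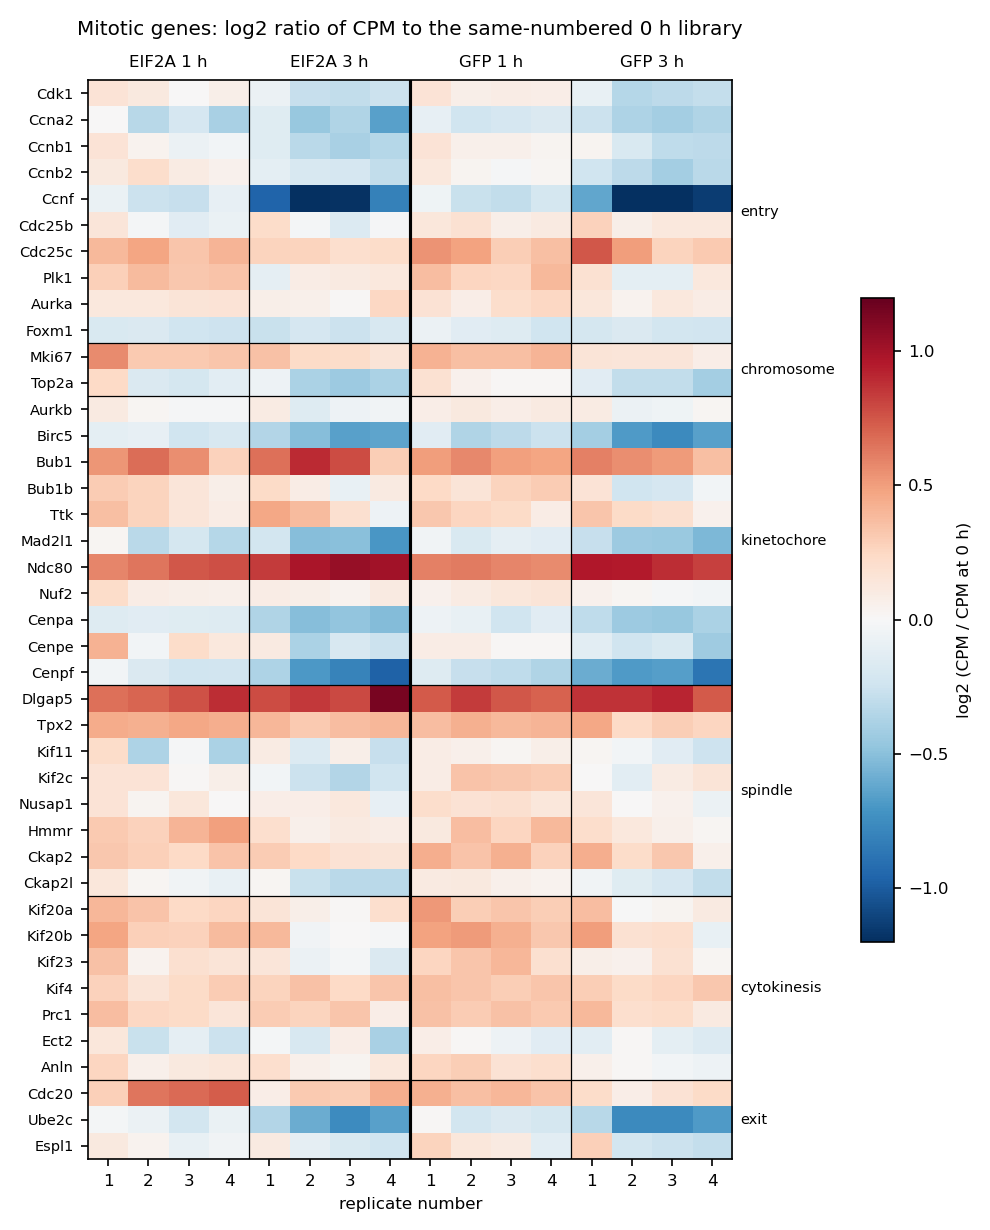
Rows are the 41 mitotic genes, grouped by role, and columns are the 16 libraries given thapsigargin. Colour is the log2 ratio of CPM to the 0 h library of the same construct and replicate number (red higher, blue lower, limited at 1.2 either way). Ndc80, Dlgap5, Bub1 and Tpx2 are red in both blocks of each construct, Ccnf, Birc5, Ube2c and Cenpf turn blue by 3 h, and Mki67, Plk1 and Cdc20 are darker red at 1 h than at 3 h.

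The calls divide the members into several courses, of which the first is a rise at 1 h that was still present at 3 h. Ndc80, a subunit of the complex that ties kinetochores to microtubules, rose the most by 3 h, to 1.92-fold of 0 h with both constructs averaged. Ndc80 in EIF2A libraries had 96.99, 99.3, 96.6 and 86.2 CPM at 0 h, 145, 155, 162 and 148 CPM at 1 h and 174, 196, 199.8 and 174 CPM at 3 h. Ndc80 in GFP libraries had 107, 92.3, 92.1 and 87.8 CPM at 0 h, 164, 142, 139 and 130.2 CPM at 1 h and 209, 178, 170.1 and 155 CPM at 3 h. In both constructs every 1 h and 3 h library was above every 0 h library, and in EIF2A libraries every 3 h library was also above every 1 h library. The log2 fold change over both constructs was 0.64 ± 0.07 (adjusted p = 5.65e-07) at 1 h against 0 h, 0.94 ± 0.07 (adjusted p = 2.62e-10) at 3 h against 0 h and 0.30 ± 0.06 (adjusted p = 0.00152) at 3 h against 1 h; errors are SE of the fit. Ndc80 was the 1 member that rose further between 1 and 3 h by edgeR with all libraries. Dlgap5 was called as well by DESeq2, with the block, without replicate 1 and with library totals (adjusted p = 0.0494, 0.00665, 0.0369 and 5.06e-04), and Cdc25b with library totals (0.0042).

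Dlgap5, which bundles spindle microtubules near chromosomes, rose 1.69-fold by 1 h and stood at 1.83-fold at 3 h. Dlgap5 in EIF2A libraries had 64.5, 67.00, 67.3 and 57.05 CPM at 0 h, 102, 109, 114 and 106 CPM at 1 h and 111, 121, 117 and 126 CPM at 3 h. Dlgap5 in GFP libraries had 59.7, 60.5, 59.3 and 60.6 CPM at 0 h, 99.7, 108, 99.6 and 99.2 CPM at 1 h and 109, 110.4, 112 and 101 CPM at 3 h. The 3 h and 1 h libraries lay above the 0 h libraries in both constructs, and the 3 h libraries overlapped those at 1 h. Its log2 fold change was 0.76 ± 0.04 (adjusted p = 6.16e-10) at 1 h against 0 h, 0.87 ± 0.04 (adjusted p = 5.70e-12) at 3 h against 0 h and 0.11 ± 0.04 (adjusted p = 0.0579) at 3 h against 1 h. Bub1, a kinase of the spindle checkpoint, rose 1.43-fold by 1 h and was 1.51-fold of 0 h at 3 h. Bub1 in EIF2A libraries had 49.3, 38.3, 37.6 and 38.99 CPM at 0 h, 71.3, 61.1, 55.4 and 47.3 CPM at 1 h and 77.8, 71.3, 64.7 and 47.9 CPM at 3 h. Bub1 in GFP libraries had 45.3, 49.8, 48.8 and 49.8 CPM at 0 h, 64.1, 74.3, 68.7 and 69.2 CPM at 1 h and 68.8, 73.4, 69.5 and 64.1 CPM at 3 h. In GFP libraries the 0 h values lay below all later ones, while in EIF2A libraries replicate 1 at 0 h overlapped the later groups. Bub1 had a log2 fold change of 0.51 ± 0.09 (adjusted p = 3.18e-04) at 1 h against 0 h, 0.59 ± 0.09 (adjusted p = 1.49e-05) at 3 h against 0 h and 0.08 ± 0.09 (adjusted p = 0.595) at 3 h against 1 h. Tpx2, which activates Aurora A and nucleates spindle microtubules, rose 1.34-fold by 1 h. Tpx2 in EIF2A libraries had 179.8, 202, 198 and 194 CPM at 0 h, 244, 272, 273 and 262 CPM at 1 h and 237, 250.5, 256 and 255 CPM at 3 h. Tpx2 in GFP libraries had 189, 182, 178 and 177 CPM at 0 h, 245, 244, 233 and 235 CPM at 1 h and 260.2, 215, 218 and 211 CPM at 3 h. Every library at 1 and 3 h was above the 0 h libraries of its construct. Over both constructs Tpx2 changed by 0.42 ± 0.05 (adjusted p = 2.03e-06) at 1 h against 0 h, 0.34 ± 0.05 (adjusted p = 3.41e-06) at 3 h against 0 h and −0.08 ± 0.05 (adjusted p = 0.246) at 3 h against 1 h.

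The other members that rose at 1 h and were still higher than 0 h at 3 h were Cdc25c, Ttk, Kif4, Prc1 and Ckap2, with log2 fold changes of 0.22 (Ttk) to 0.41 (Cdc25c) at 1 h and of 0.23 (Ttk) to 0.35 (Cdc25c) at 3 h. Cdc25c is a phosphatase that activates CDK1, Ttk a checkpoint kinase, and Kif4 and Prc1 form the midzone of the anaphase spindle. None of these 5 was called between 1 and 3 h, where their values ran from −0.09 (Ckap2) to 0.01 (Ttk). Ttk was called at 3 h with an adjusted p of 0.00992, and its 1 h call was lost without replicate 1 (adjusted p = 0.0535, edgeR).

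A rise at 1 h followed by a fall by 3 h was called for 8 of the 18 members that rose: Mki67, Cdc20, Plk1, Bub1b, Kif20a, Kif23, Kif2c and Hmmr. Among all 1801 genes that rose at 1 h, 138 then fell, which is 7.66% of them and 1% of all genes tested. Mki67 and Cdc20 were still higher than 0 h at 3 h, and of the 18 members that rose at 1 h, 11 were higher than 0 h at 3 h and 0 were lower. The member of the 18 nearest to a fall below 0 h was Kif2c, at −0.09 ± 0.05 (unadjusted p = 0.0933), which the DESeq2 Wald test called lower (adjusted p = 0.0462). Of all genes that rose at 1 h, 88.8% were higher than 0 h at 3 h. Both comparisons use the same 1 h libraries, so that a library high by chance at 1 h favours both calls. The count was 1 of 18 with scaling by library totals (2.93% of all genes that rose), where the 8 genes had log2 fold changes of −0.07 (Mki67) to −0.16 (Plk1) at 3 h against 1 h and Kif2c alone was called. It was 16 of 25 with the replicate block (background 18.3% of the genes that rose) and 12 of 20 without replicate 1 (19.1%). Without replicate 2 it was 2 of 11 (3.28%), without replicate 3 1 of 11 (2.94%) and without replicate 4 3 of 15 (4.32%).

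Mki67 encodes Ki-67, which coats mitotic chromosomes and is the common marker of proliferating cells. Mki67 in EIF2A libraries had 461, 530.0, 533 and 499.6 CPM at 0 h, 686, 659, 662 and 631 CPM at 1 h and 589, 623, 619 and 557 CPM at 3 h. Mki67 in GFP libraries had 506, 469, 463 and 462 CPM at 0 h, 675, 604, 594 and 613 CPM at 1 h and 562, 519, 511 and 489.8 CPM at 3 h. At 1 h every library was above those at 0 h in both constructs and above those at 3 h in both constructs. Mki67 changed by 0.38 ± 0.05 (adjusted p = 7.90e-06) at 1 h against 0 h, 0.18 ± 0.05 (adjusted p = 0.00295) at 3 h against 0 h and −0.20 ± 0.05 (adjusted p = 0.00349) at 3 h against 1 h. Within GFP libraries the fall between 1 and 3 h passed the test (−0.26 ± 0.07, adjusted p = 0.0204), and within EIF2A libraries it had −0.14 ± 0.07 (adjusted p = 0.17).

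Plk1, the Polo-like kinase that drives mitotic entry and spindle assembly, was the 1 member called for both the rise and the fall within each construct. Plk1 in EIF2A libraries had 123, 96.3, 96.3 and 109 CPM at 0 h, 149.9, 125, 121 and 138 CPM at 1 h and 114, 102, 104 and 119 CPM at 3 h. Plk1 in GFP libraries had 103, 118, 121 and 118 CPM at 0 h, 133, 141, 144 and 156 CPM at 1 h and 117, 108, 111 and 129 CPM at 3 h. The 1 h libraries lay above all 3 h libraries in both constructs, and above all 0 h libraries in GFP but not in EIF2A, where replicate 1 at 0 h overlapped them. Plk1 changed by 0.32 ± 0.06 (adjusted p = 9.70e-04) at 1 h against 0 h, 0.03 ± 0.06 (adjusted p = 0.716) at 3 h against 0 h and −0.29 ± 0.06 (adjusted p = 0.00188) at 3 h against 1 h, so that its 3 h level did not differ from 0 h beyond the error. In EIF2A libraries the fall was −0.28 ± 0.09 (adjusted p = 0.042), and in GFP libraries −0.30 ± 0.09 (adjusted p = 0.0408). Both falls lie close to the threshold: they were not called with scaling by library totals (adjusted p = 0.468 in EIF2A and 0.247 in GFP) or without replicate 2, 3 or 4. Neither was called without the filter on low counts or with the length trend removed, and both were called with the block, with DESeq2, with DESeq2's size factors in edgeR and without replicate 1. Leaving out 1 library, the fall in EIF2A was not called without replicates 1 or 4 at 1 h or replicates 2 or 3 at 3 h (adjusted p = 0.102 to 0.133), nor without replicates 2 or 4 at 0 h, 2 or 3 at 1 h, or 3 at 3 h of GFP (adjusted p = 0.0504 to 0.0543). The fall in GFP was not called without replicates 2 to 4 at 1 h, 1 to 3 at 3 h, or 2 or 4 at 0 h of GFP (adjusted p = 0.0509 to 0.137). The rise at 1 h was not called in EIF2A when any 1 of 4 EIF2A libraries was left out, nor in GFP when any 1 of 7 GFP libraries was. The exons of Plk1 share 156 bases with a gene on the opposite strand, Gm44985, whose reads could not be told apart if the counting ignored strand.

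Kif2c encodes MCAK, a kinesin that depolymerises microtubules at centromeres. Kif2c in EIF2A libraries had 58.1, 59.97, 64.5 and 67.3 CPM at 0 h, 64.9, 67.1, 64.96 and 70.7 CPM at 1 h and 56.8, 50.2, 50.7 and 57.03 CPM at 3 h. Kif2c in GFP libraries had 57.99, 57.04, 55.8 and 57.6 CPM at 0 h, 61.6, 72.3, 69.7 and 71.1 CPM at 1 h and 58.1, 52.4, 59.6 and 63.99 CPM at 3 h. In GFP libraries the 1 h values lay above those at 0 h, and in EIF2A libraries the 3 h values lay below those at 0 h and 1 h. Its log2 fold change was 0.18 ± 0.05 (adjusted p = 0.0136) at 1 h against 0 h, −0.09 ± 0.05 (adjusted p = 0.154) at 3 h against 0 h and −0.27 ± 0.05 (adjusted p = 4.58e-04) at 3 h against 1 h. Within EIF2A libraries Kif2c was lower at 3 h than at 0 h (−0.22 ± 0.07, adjusted p = 0.0246), where within GFP libraries it had 0.04 ± 0.07 (adjusted p = 0.768). The difference between these responses did not pass the test over all genes (interaction −0.25 ± 0.10, unadjusted p = 0.024, adjusted p = 0.9999, edgeR).

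Cdc20, the activator of the anaphase-promoting complex, had the highest level per kilobase of exon of the 41 members, at 126.5 CPM per kb over all libraries, and Espl1 (separase) the lowest, at 6.17 CPM per kb. Cdc20 in EIF2A libraries had 192, 213, 212 and 218 CPM at 0 h, 234, 334, 339 and 361 CPM at 1 h and 202, 265, 261 and 296 CPM at 3 h. Cdc20 in GFP libraries had 176, 186, 189 and 191 CPM at 0 h, 237, 238, 249.8 and 242 CPM at 1 h and 204, 196, 213 and 224 CPM at 3 h. Replicates 2 to 4 of EIF2A at 1 h were higher than all other libraries, and replicate 1 of that group, at 233.9 CPM, was just below the GFP libraries at 1 h. Cdc20 changed by 0.49 ± 0.08 (adjusted p = 1.06e-04) at 1 h against 0 h, 0.23 ± 0.08 (adjusted p = 0.0163) at 3 h against 0 h and −0.26 ± 0.08 (adjusted p = 0.0169) at 3 h against 1 h. Of the other genes with a rise and a fall, Hmmr, a spindle assembly factor, rose by 0.33 ± 0.06 on the log2 scale and fell by 0.22. Kif20a and Kif23, kinesins of the central spindle, rose by 0.34 and 0.24 and fell by 0.21 and 0.22. Bub1b, the checkpoint protein BubR1, rose by 0.22 and fell by 0.21, with an adjusted p of 0.0462 for the rise and 0.0422 for the fall.

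**Figure D2:**
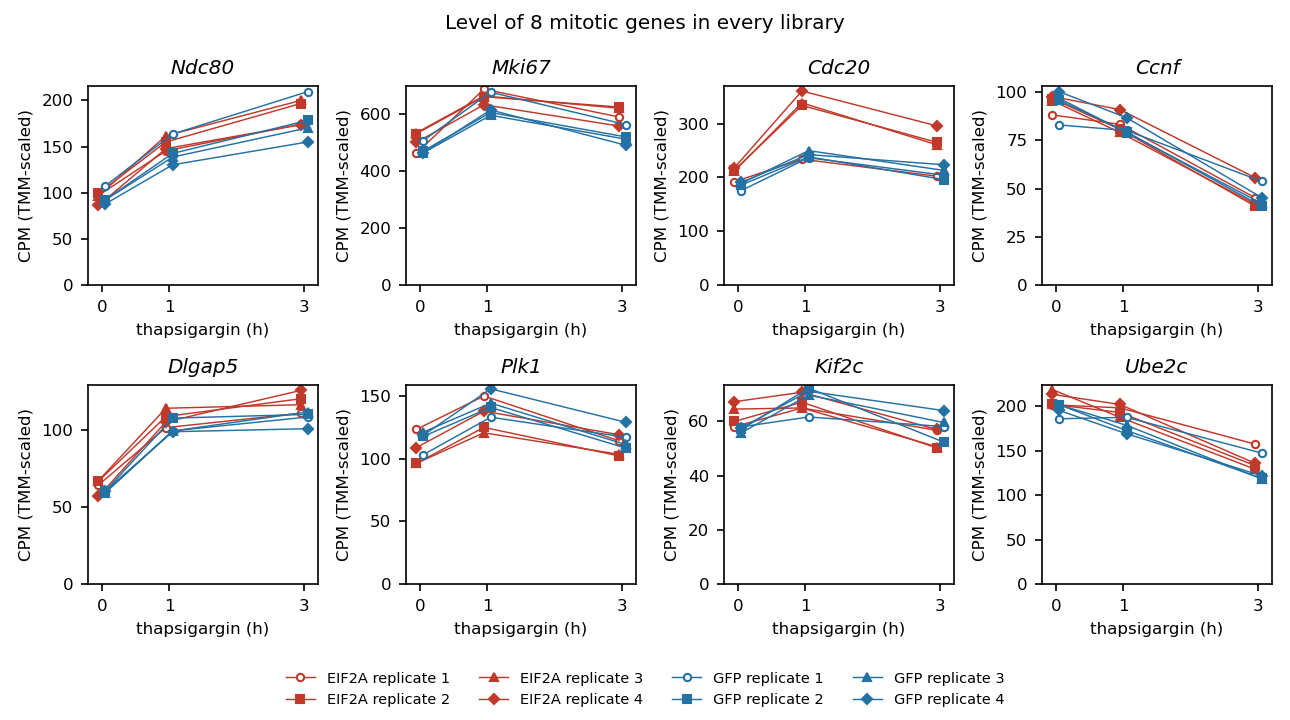
Level of 8 mitotic genes in every library, as CPM against hours of thapsigargin (EIF2A in red, GFP in blue, open circles for replicate 1); lines join libraries of the same replicate number. Ndc80 and Dlgap5 stayed up to 3 h, Mki67, Plk1, Cdc20 and Kif2c peaked at 1 h, and Ccnf and Ube2c were lowest at 3 h.

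The third course is a fall. Ccnf (cyclin F, a subunit of a ubiquitin ligase that limits mitotic regulators) was at 0.487-fold of 0 h by 3 h, the largest change among the 41 members. Ccnf in EIF2A libraries had 88.1, 96.5, 95.5 and 97.6 CPM at 0 h, 83.3, 80.7, 79.03 and 90.9 CPM at 1 h and 45.3, 40.98, 42.02 and 55.7 CPM at 3 h. Ccnf in GFP libraries had 82.9, 95.6, 96.7 and 100.1 CPM at 0 h, 80.04, 79.4, 78.96 and 86.7 CPM at 1 h and 53.8, 40.8, 42.3 and 45.4 CPM at 3 h. Every 3 h library was below every 0 h and 1 h library of its construct, and the libraries at 1 h overlapped those at 0 h. Ccnf changed by −0.19 ± 0.07 (adjusted p = 0.044) at 1 h against 0 h, −1.04 ± 0.07 (adjusted p = 1.24e-10) at 3 h against 0 h and −0.85 ± 0.07 (adjusted p = 3.17e-08) at 3 h against 1 h. Ube2c, the ubiquitin-conjugating enzyme of the anaphase-promoting complex, was at 0.656-fold of 0 h by 3 h. Ube2c in EIF2A libraries had 202, 202, 219 and 213 CPM at 0 h, 198, 193, 188 and 202 CPM at 1 h and 158, 133, 129 and 136 CPM at 3 h. Ube2c in GFP libraries had 186, 202, 202 and 195 CPM at 0 h, 188, 173, 178 and 169 CPM at 1 h and 147, 119, 118 and 122 CPM at 3 h. Its 3 h libraries too lay below all others in both constructs. The log2 fold change of Ube2c was −0.12 ± 0.05 (adjusted p = 0.0992) at 1 h against 0 h, −0.61 ± 0.05 (adjusted p = 5.91e-09) at 3 h against 0 h and −0.49 ± 0.05 (adjusted p = 1.17e-06) at 3 h against 1 h. Its exons share 592 bases with Tnnc2 on the opposite strand.

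Birc5 (survivin) belongs with Aurora B to the chromosomal passenger complex. Birc5 in EIF2A libraries had 152, 188, 189.8 and 184 CPM at 0 h, 141, 175, 160.4 and 161 CPM at 1 h and 119, 132, 121 and 119 CPM at 3 h. Birc5 in GFP libraries had 144, 155, 159 and 150.1 CPM at 0 h, 131, 121, 128 and 126 CPM at 1 h and 109, 96.7, 93.9 and 95.8 CPM at 3 h. Each of the 3 h groups lay below the 1 h and 0 h groups of its construct, and in GFP libraries the 1 h group also lay below the 0 h group. Birc5 changed by −0.21 ± 0.05 (adjusted p = 0.00626) at 1 h against 0 h, −0.58 ± 0.05 (adjusted p = 1.76e-08) at 3 h against 0 h and −0.37 ± 0.05 (adjusted p = 4.05e-05) at 3 h against 1 h. Cenpa, the histone H3 variant that marks centromeres, behaved likewise. Cenpa in EIF2A libraries had 141, 155, 156 and 156 CPM at 0 h, 126, 141, 141 and 139.9 CPM at 1 h and 109, 108, 112 and 108 CPM at 3 h. Cenpa in GFP libraries had 129, 128, 140.3 and 129 CPM at 0 h, 124, 121, 119 and 117 CPM at 1 h and 105, 94.8, 102 and 99.4 CPM at 3 h. Again all 3 h libraries were below all others, and in GFP libraries those at 1 h were below those at 0 h. The log2 fold change of Cenpa was −0.14 ± 0.04 (adjusted p = 0.0136) at 1 h against 0 h, −0.43 ± 0.04 (adjusted p = 1.32e-08) at 3 h against 0 h and −0.29 ± 0.04 (adjusted p = 1.43e-05) at 3 h against 1 h.

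Ccna2 (cyclin A2) drives S phase and the entry into mitosis. Ccna2 in EIF2A libraries had 339.5, 349, 315 and 330.1 CPM at 0 h, 339.6, 277, 273 and 253 CPM at 1 h and 306, 254, 245 and 209.5 CPM at 3 h. Ccna2 in GFP libraries had 332, 357, 346 and 337 CPM at 0 h, 310.5, 303, 301 and 299 CPM at 1 h and 278, 277, 260.4 and 262 CPM at 3 h. In EIF2A libraries replicate 1 at 1 h lay with the 0 h values, while in GFP libraries each later group lay below the one before. Ccna2 changed by −0.20 ± 0.07 (adjusted p = 0.032) at 1 h against 0 h, −0.37 ± 0.07 (adjusted p = 7.34e-05) at 3 h against 0 h and −0.17 ± 0.07 (adjusted p = 0.0553) at 3 h against 1 h, and its exons share 510 bases with Exosc9 on the opposite strand. Foxm1, a transcription factor of G2/M genes, was lower by 1 h and no lower after that. Foxm1 in EIF2A libraries had 153, 137, 148 and 156 CPM at 0 h, 134, 122, 125 and 131 CPM at 1 h and 127, 119, 123 and 137 CPM at 3 h. Foxm1 in GFP libraries had 138, 148, 153 and 170.2 CPM at 0 h, 132, 135, 138 and 144 CPM at 1 h and 119, 131, 131 and 145 CPM at 3 h. In EIF2A libraries the 1 h and 3 h groups lay below the 0 h group, and in GFP libraries the groups overlapped. Foxm1 changed by −0.18 ± 0.05 (adjusted p = 0.013) at 1 h against 0 h, −0.22 ± 0.05 (adjusted p = 0.00123) at 3 h against 0 h and −0.04 ± 0.05 (adjusted p = 0.656) at 3 h against 1 h. With scaling by library totals its value at 3 h against 0 h was −0.08 and not called (adjusted p = 0.279, edgeR).

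The other 6 members that were lower at 3 h than at 0 h were Cenpf, Mad2l1, Top2a, Ccnb2, Cdk1 and Cenpe. Cenpf, a kinetochore protein that is abundant in G2, fell by 0.69 ± 0.09 and Mad2l1, the checkpoint protein MAD2, by 0.44 ± 0.08. Top2a (topoisomerase II alpha, which untangles sister chromatids) fell by 0.29, Ccnb2 (cyclin B2) by 0.26, Cdk1 by 0.24 and Cenpe, a kinesin at the kinetochore, by 0.21. All 6 also fell between 1 and 3 h, and at 1 h none of them was called by edgeR, where Cenpf had an adjusted p of 0.104 and the block gave 7.31e-05. With scaling by library totals all 12 members that fell by 3 h still had negative values, of which 7 were called.

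The remaining members were called in none of the 3 comparisons with both constructs averaged. These 11 were Ccnb1, Cdc25b, Aurka, Aurkb, Kif11, Nuf2, Nusap1, Ect2, Anln, Ckap2l and Espl1, with log2 fold changes at 3 h against 0 h of −0.24 (Ccnb1) to 0.10 (Aurka). Ccnb1 (cyclin B1, the partner of CDK1) had wide errors, and replicate 1 of EIF2A stood above the other replicates at each time. Ccnb1 in EIF2A libraries had 138, 95.8, 97.4 and 95.6 CPM at 0 h, 154, 98.7, 92.8 and 93.3 CPM at 1 h and 124, 76.6, 74.2 and 75.3 CPM at 3 h. Ccnb1 in GFP libraries had 105, 120.1, 119 and 124 CPM at 0 h, 117, 126, 124 and 127 CPM at 1 h and 107, 106, 96.6 and 99.8 CPM at 3 h. Its value at 3 h against 1 h was −0.30 ± 0.12 (adjusted p = 0.0645), and with the block it was called (adjusted p = 7.42e-08). Under the block 9 of the 11 were called in some comparison, all but Cdc25b and Kif11, and without replicate 1 all but Cdc25b, Nuf2 and Ect2 were. Such calls were common over all genes: under the block 37.6% were higher and 37.8% lower at 3 h against 0 h alone. Without replicate 1, 26.4% of all genes rose at 1 h and 28.3% fell between 1 and 3 h. The share of all genes called in any of the 3 comparisons was not counted. Kif20b rose at 1 h (0.39 ± 0.10, adjusted p = 0.00455) and had −0.24 ± 0.10 (adjusted p = 0.0596) after that.

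By role, counts are set beside the share of all genes, which at 1 h was 13.1% higher and 9.74% lower. At 1 h against 0 h, 5 of 8 spindle genes (62.5%) and 5 of 7 cytokinesis genes (71.4%) rose and 0 fell, by edgeR as by DESeq2. Unadjusted p was under 0.05 for 5 spindle and 6 cytokinesis genes at 1 h, and for 4601 of the 13761 genes tested. In the same comparison 4 of 11 kinetochore and checkpoint genes rose and 2 fell (36.4% and 18.2%). Of 10 genes of mitotic entry, 2 rose (Plk1, Cdc25c) and 3 fell (Ccna2, Ccnf, Foxm1) at 1 h, or 20% and 30%. Between 1 and 3 h, where 15.6% of all genes rose and 12.9% fell, 4 entry, 6 kinetochore, 2 spindle, 2 cytokinesis, 2 exit and both chromosome genes fell, and 1 kinetochore gene rose. By 3 h against 0 h, with 26% of all genes higher and 23.6% lower, 1 entry gene was higher and 5 lower (10% and 50%). In that comparison 3 kinetochore genes were higher (Bub1, Ttk and Ndc80, 27.3%) and 5 lower (Birc5, Mad2l1, Cenpa, Cenpe and Cenpf, 45.5%). Of the spindle genes 3 were higher (Dlgap5, Tpx2, Ckap2) and 0 lower by edgeR, and DESeq2 called 2 lower. Unadjusted p was under 0.05 for 4 of these 8 spindle genes and for 7578 of the 13761 genes tested. Nuf2, whose product pairs with NDC80 in the same complex, had 0.04 ± 0.10 at 3 h against 0 h and was not called, where Ndc80 had 0.94 ± 0.07. With scaling by library totals 3 of the entry genes were higher and 2 lower at 3 h than at 0 h, 5 cytokinesis genes were higher, and the kinetochore genes had 3 higher and 4 lower. The role groups share libraries and hold few genes, and differences between them were not tested.

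**Figure D3:**
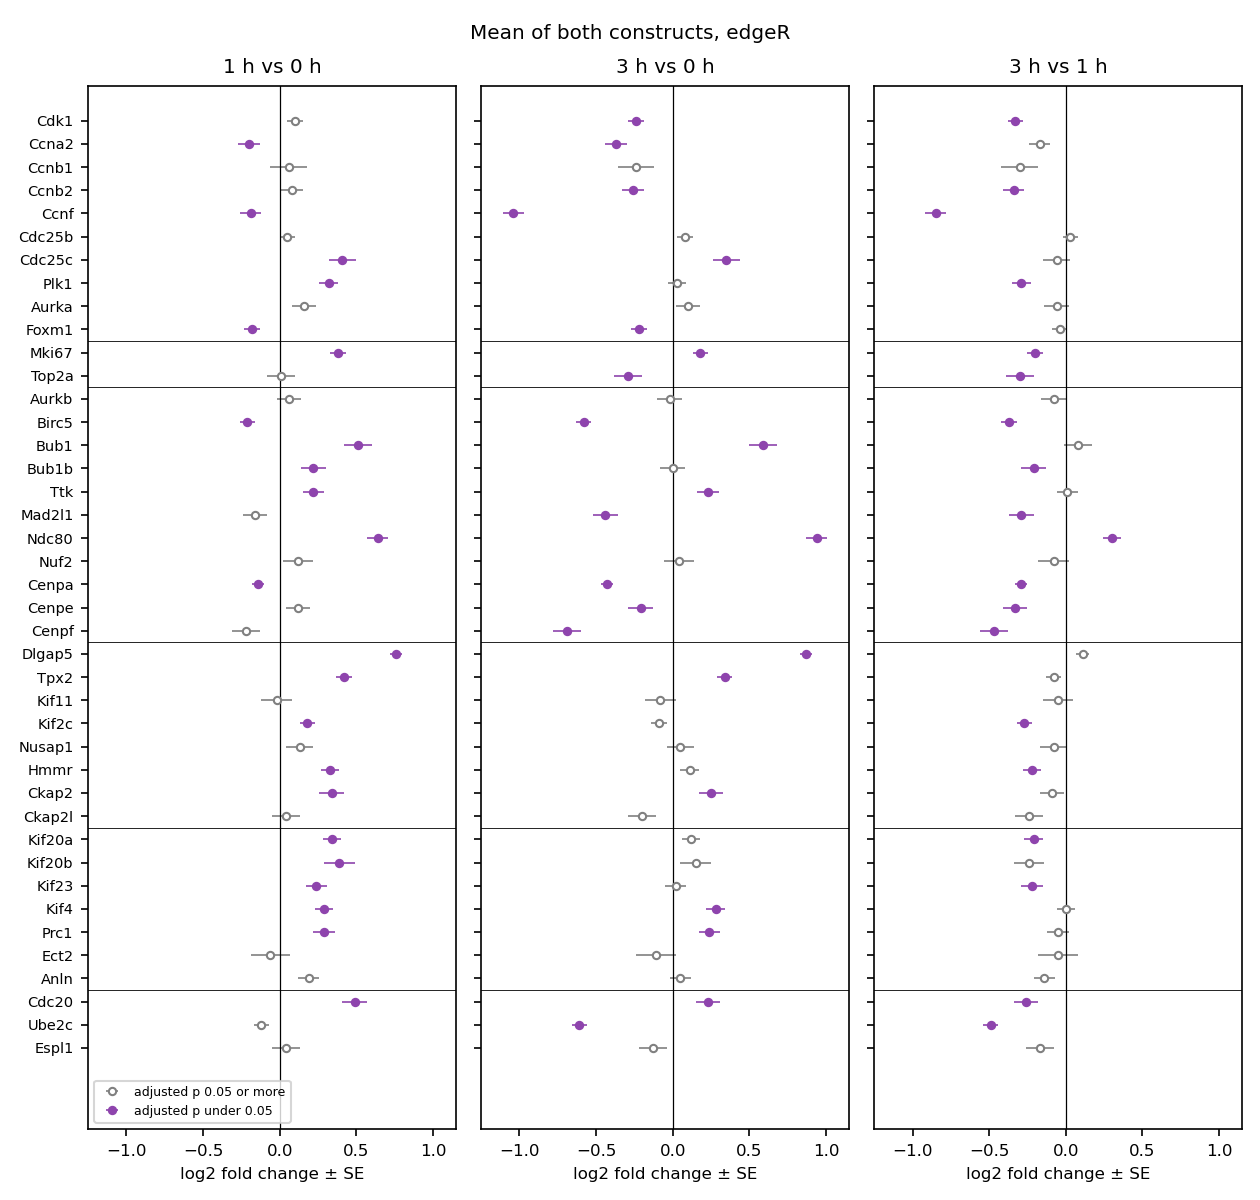
Log2 fold change with SE of each of the 41 members in the 3 comparisons of times, averaged over both constructs (filled where the adjusted p was under 0.05); lines divide the roles in the order entry, chromosome, kinetochore, spindle, cytokinesis and exit. In the panel of 3 h against 1 h Ndc80 is the 1 filled point to the right of 0, and 18 lie to the left.

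Members that rose at 1 h in one construct were also examined in the other, which shares no library with it. The list of members itself was drawn up with results of both constructs known, and the 10 genes chosen in EIF2A are all among the 15 chosen in GFP. The 15 members chosen in GFP libraries had a median log2 fold change of −0.14 at 3 h against 1 h in EIF2A libraries, with 11 of 15 negative. Among all 796 genes that rose at 1 h in GFP libraries, 136 were negative in EIF2A libraries and the median was 0.29. Of the 15, 2 fell (Plk1, Kif2c) and 1 rose (Ndc80) in EIF2A libraries, where 3.39% of the 796 fell and 44.3% rose. The 10 members chosen in EIF2A libraries had a median of −0.13 at 3 h against 1 h in GFP libraries, with 7 of 10 negative, 2 that fell (Mki67, Plk1) and 1 that rose (Ndc80). All 902 genes that rose at 1 h in EIF2A libraries had a median of 0.21 in GFP libraries, with 188 negative, 2.33% that fell and 26.6% that rose. The sign of the members' median in EIF2A libraries depends on the scaling. With library totals the medians were 0.02 in EIF2A libraries (15 members) and −0.03 in GFP libraries (10 members), where all genes chosen likewise had 0.46 and 0.31.

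**Figure D4:**
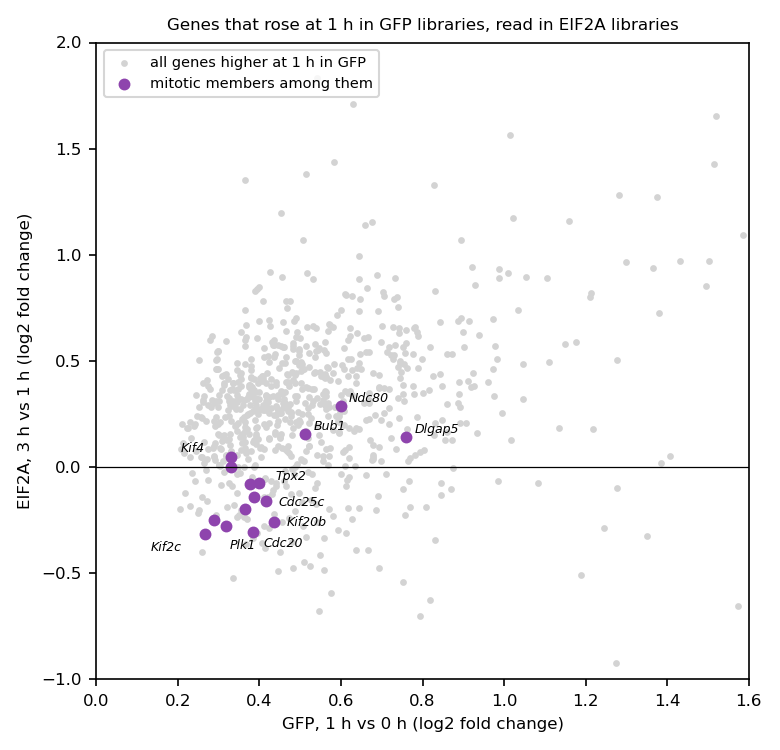
Each point is a gene that rose at 1 h in GFP libraries, by its log2 fold change there (horizontal) and its log2 fold change at 3 h against 1 h in EIF2A libraries (vertical); 12 of 796 genes lie beyond the axes. The 15 mitotic members (purple, some named) lie in the lower part of the cloud, 11 of them below 0, where the median of the 796 genes is 0.29.

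Groups whose libraries do not overlap were also counted. In EIF2A libraries 8 members had all 4 libraries at 1 h above all 4 at 0 h and 1 had all below, where 7.31% and 5.6% of all genes did. At 3 h against 1 h, 1 member lay wholly above and 11 wholly below (7.73% and 6.2%). In GFP libraries 20 members lay wholly above and 5 wholly below at 1 h against 0 h (12.2% and 10%), and 0 above and 17 below at 3 h against 1 h (12.3% and 9.93%).

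With all libraries, no member had a time course that differed between the constructs by the test. No member passed the test of the interaction, the response in EIF2A minus the response in GFP, at 1 h, at 3 h or between 1 and 3 h (0 of 41 in each by edgeR and by DESeq2), nor did any of the 13761 genes by edgeR (0%). Unadjusted p was under 0.05 for 0, 1 and 0 members and for 72, 146 and 46 of all genes. For all genes this is a smaller share than the 0.05 that no difference at all would give. With all libraries and no block the test could thus hardly call an interaction, and its lack of calls does not show that the constructs responded alike. With the replicate block and all libraries 0 members passed too, against 1, 2 and 0 of all genes. Unadjusted p was then under 0.05 for 1, 2 and 4 members and for 1045, 1491 and 967 of the 13761 genes. Without replicate 1 and without the block 0 members passed, and the share of all genes is not given here. Interaction values of the members ran from −0.17 to 0.22 at 1 h, from −0.25 to 0.16 at 3 h and from −0.20 to 0.20 between them. For Plk1 between 1 and 3 h the difference was 0.02, with a 95% interval from −0.24 to 0.28, and for Mki67 it was 0.11, from −0.08 to 0.30. With both the replicate block and replicate 1 left out, a setting chosen after seeing the data, 4 members passed at 1 h, 3 at 3 h and 3 between them. Of all genes 7.62%, 14.2% and 9.69% passed, shares near or above those of the members. Among these, Cdc20 had a response at 1 h that was larger by 0.31 in EIF2A libraries (adjusted p = 0.00043), and Kif11, the motor that separates spindle poles, had one smaller by 0.31 (interaction −0.31, adjusted p = 0.0116).

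The level of the mitotic genes in EIF2A against GFP libraries turns on replicate 1. With all libraries and without a block, 0 members differed by edgeR at 0 h and at 3 h and 1 at 1 h, Birc5 (0.33 ± 0.08, adjusted p = 0.0462, edgeR), where 0.0218%, 0% and 1.02% of all genes did. Unadjusted p was under 0.05 for 8 members at 0 h and 9 at 3 h, and for 3006 and 2901 of the 13761 genes tested. The DESeq2 Wald test called 2 members at 0 h, 5 at 1 h and 2 at 3 h (3.83%, 15.3% and 1.53% of all genes), and the replicate block 3, 6 and 3 (9.69%, 21% and 7.66%). Averaged over the 3 times, 12 members were higher and 5 lower, against 23.1% and 22.1% of all genes, in a fit that treats the 3 times of a replicate as separate. Without replicate 1, 16 were higher and 10 lower at 0 h (background 31.9% and 32.9%), 13 and 13 at 1 h (32.7% and 37.3%), and 17 and 10 at 3 h (32.5% and 35.1%), so that about as large a share of all genes differed. Without replicate 2 or 3, 0 members were higher or lower over the 3 times, and without replicate 4, 3 were higher and 1 lower. The share of all genes for this difference is not given for these fits, so the counts have no background. Calls over all genes drop in such fits. At 1 h over both constructs 5.54%, 5.17% and 7.91% of all genes rose without replicate 2, 3 or 4, against 13.1% with all libraries.

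Members moved both ways between constructs. Ckap2l in EIF2A libraries had 131, 174, 176 and 164 CPM at 0 h, 144, 177, 171 and 154 CPM at 1 h and 133, 145, 141 and 131 CPM at 3 h. Ckap2l in GFP libraries had 157, 124, 125 and 122 CPM at 0 h, 169, 134, 130.5 and 126 CPM at 1 h and 152, 112, 108 and 99.5 CPM at 3 h. In replicates 2 to 4 Ckap2l, a spindle protein, was higher in EIF2A than in GFP libraries at each time, and in replicate 1 it was lower at each time. Ect2, which activates RhoA for cytokinesis, ran the other way, with 95.0, 76.6 and 80.2 CPM in EIF2A replicates 2 to 4 at 0 h against 112.9, 114.7 and 114.7 CPM in GFP, and 118.0 CPM in EIF2A replicate 1 against 99.5 CPM in GFP replicate 1. Without replicate 1 the log2 difference at 0 h was 0.47 ± 0.06 for Ckap2l and −0.44 ± 0.09 for Ect2. Ccnb1 had −0.33 ± 0.05, Nuf2 −0.39 ± 0.06, Cdc25c 0.49 ± 0.06 and Kif23 0.46 ± 0.06 in the same comparison. Eif2a itself goes against the labels in replicate 1, as given above, and which construct those libraries carried was not tested.

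Other cell cycle genes were counted in the same fits to set the members beside them. With both constructs averaged, 13.1% of all genes rose and 9.74% fell at 1 h. The shares were 26% and 23.6% at 3 h against 0 h, and 15.6% and 12.9% between 1 and 3 h. Of 80 further mitotic genes, 27 rose and 2 fell at 1 h (33.8% and 2.5%). At 3 h 34 were higher and 20 lower than at 0 h (42.5% and 25%). Between 1 and 3 h 14 rose and 20 fell (17.5% and 25%). Their medians were 0.14, 0.13 and −0.04. With scaling by library totals 24 rose and 7 fell between 1 and 3 h, against 27.6% and 6.24% of all genes. Fbxo5 (EMI1, an inhibitor of the anaphase-promoting complex) rose by 0.84 ± 0.08 at 1 h and 1.44 ± 0.08 by 3 h. Kifc1, a minus-end-directed spindle motor, rose by 0.84 and Ncapg, a condensin subunit, by 0.64 at 1 h. Fam83d, a spindle protein, fell by 0.92 ± 0.10 and Cep55, which acts in abscission, by 0.82 ± 0.09 by 3 h.

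The 35 genes of G1/S and DNA replication had more rises than falls in each comparison. At 1 h 13 rose and 0 fell (37.1% and 0%, against 13.1% and 9.74% of all genes). At 3 h 22 were higher and 2 lower than at 0 h (62.9% and 5.71%, against 26% and 23.6%). Between 1 and 3 h 17 rose and 1 fell (48.6% and 2.86%, against 15.6% and 12.9%). Their median between 1 and 3 h was 0.22, where that of the mitotic members was −0.20. At 1 h the DESeq2 Wald test called 2 of these genes lower, where edgeR called 0. With edgeR 21 of the 35, of either sign, had an unadjusted p under 0.05, as had 4601 of the 13761 genes tested. Cdt1, which loads the MCM helicase at origins, rose by 0.45 ± 0.06 at 1 h and 0.99 ± 0.06 by 3 h. Dtl, which directs Cdt1 to degradation, was higher by 0.79 at 3 h, and Uhrf1, which maintains DNA methylation at replication forks, by 0.72. Fen1, a nuclease of lagging-strand synthesis, fell by 0.31 and Ccne2 (cyclin E2) by 0.27 by 3 h. Of 25 inhibitors and checkpoint brakes, 4 rose and 5 fell at 1 h (16% and 20%). At 3 h 7 were higher and 5 lower than at 0 h (28% and 20%), shares near those of all genes. Gadd45b and Gadd45g, stress-induced genes that can arrest cells in G2, rose by 1.69 ± 0.13 and 1.58 ± 0.24 by 3 h. Cdkn2c (p18, an inhibitor of CDK4 and CDK6) fell by 0.77 ± 0.05, and Sfn (14-3-3 sigma) by 0.94 ± 0.14. Sfn had a low level, with 1.43 to 4.85 CPM over all libraries.

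Members can share reads with neighbours. Beside the overlaps already given, exons overlap a gene on the opposite strand by 1271 bases for Kif20a (Cdc23), 911 for Prc1 (Rccd1), 832 for Kif4 (Pdzd11), 623 for Cdc25c (Gm3550), 181 for Ckap2l (Gm14024), 172 for Nusap1 (Oip5), 92 for Cdc25b (Spef1) and 53 for Cdc20 (Elovl1). On the same strand Foxm1 shares 144 bases with Tex52 and 97 with Gm44596, Top2a 122 with Gm23451 and Ccnf 8 with Mir5134, and Ccnb1, Ccnb2 and Kif4 have annotated pseudogenes. The library kit keeps strand, while the strand setting of the counting is unknown here, and the values of these genes are uncertain to that extent.

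**Figure D5:**
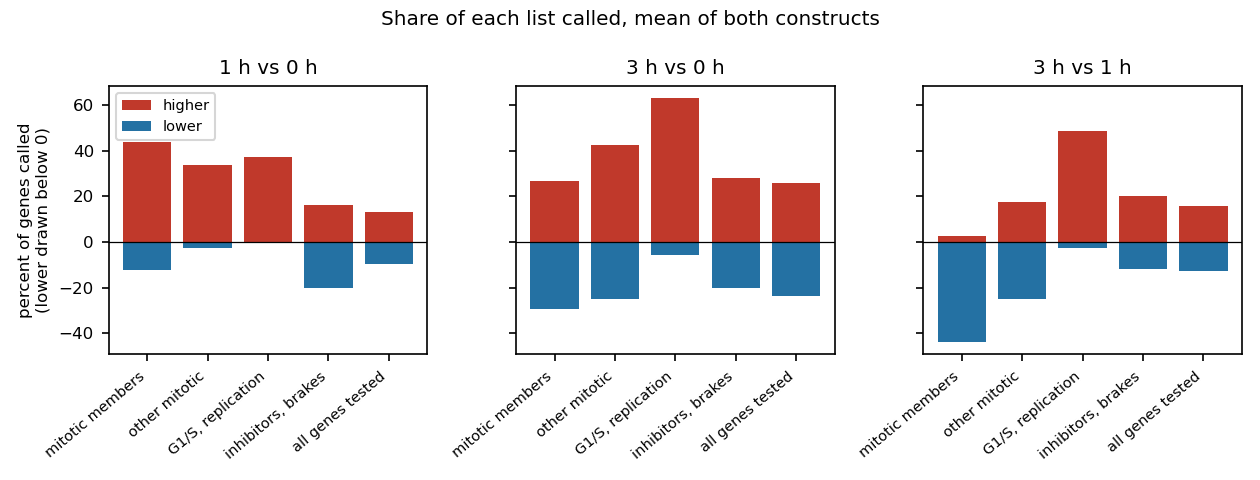
Percent of each list called higher (red, above 0) and lower (blue, below 0) in the 3 comparisons of times, with both constructs averaged and all 13761 genes tested as the last bar. Between 1 and 3 h the mitotic members have the longest bar below 0 and the G1/S genes the longest above it.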

How the data were processed

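Gene-level raw counts for 24 libraries were used as deposited by the authors, for 6 groups of 4 libraries. Per the submitters' processing notes the tools were bcl2fastq and STAR and the build mm10; for the counting tool, its annotation and its strand setting the sources used here have no entry. Rows that name no gene were left out; no_feature came to 10.7 to 17.9% and ambiguous to 0.518 to 0.592% of a library's column. No column belonged to another series.

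Counts were analysed with edgeR 4.0.16 in R 4.3.3: filterByExpr (minimum count 10, minimum total 15), TMM scaling, and the quasi-likelihood test in 1 fit of 6 group means (18 residual degrees of freedom), with Benjamini-Hochberg adjustment over 13761 genes and a threshold of 0.05. "Both constructs" is the mean of the EIF2A and the GFP response. CPM are counts over TMM-scaled library sizes. DESeq2 1.42.0 and the alternatives given in the closing section were run on the same counts. The procedure was also run on simulated counts, with the same dispersion for all genes and no replicate set apart. These libraries differ from that, and no conclusion is drawn from the simulation. Gene lengths and overlaps are from GENCODE M21 (GRCm38, a length for 96.2% of tested genes) and promoters from RefSeq GRCm38.p6.

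The labels do not say that replicates were separate cultures, so p-values measure the spread between these libraries, which may be technical. Reads carry no molecular identifiers, and depth covers counting error only. Over all genes, deviations from group means correlated at 0.53 to 0.93 between libraries of the same number and construct (24 pairs), so the replicate number within construct was used as a block in an alternative fit with 8 blocks and 12 residual degrees of freedom. Without replicate 1 these correlations were −0.03 to 0.33 (18 pairs). Across constructs, same-numbered libraries gave −0.65 to −0.16 with all libraries and −0.07 to 0.31 without replicate 1 (27 pairs).

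The members and the other gene lists were chosen with earlier results of these data known. The 13 named members were the 4 smallest p-values in each direction of each comparison over both constructs, and up to 8 members called for both a rise and a fall within either construct. Cdc20 is not among these 13 and was described in full outside these rules. Ccnb1, Ckap2l and Ect2 were chosen after their values were seen.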

Additional observations from a re-analysis of the deposited data

Results flagged for a closer look

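In groups of 4 libraries, a library was picked out where its gap to the nearest of the others took up more of the group's range than Dixon's critical value allows. Chance alone picks about 1 in 20 groups. Over all members this held for 31 of 246 groups, and the library apart was replicate 1 in 25 of them and replicates 2, 3 and 4 in 3, 1 and 2. Among the 13 members chosen to be named it held for 11 of 78 groups, 7 of them with replicate 1.

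In EIF2A libraries at 0 h, replicate 1 had 49.3 CPM of Bub1 (the others 37.6 to 39.0), 141 CPM of Cenpa (155 to 156) and 152 CPM of Birc5 (184 to 190). In EIF2A libraries at 1 h, replicate 1 had 126 CPM of Cenpa (the others 140 to 141), and at 3 h replicate 2 had 132 CPM of Birc5 (119 to 121). In GFP libraries at 0 h, replicate 1 had 506 CPM of Mki67 (the others 463 to 469) and replicate 3 had 140 CPM of Cenpa (128 to 129). In GFP libraries at 1 h, replicate 2 had 108 CPM of Dlgap5 (the others 99.2 to 99.7) and replicate 4 had 86.6 CPM of Ccnf (79.0 to 80.0). In GFP libraries at 3 h, replicate 1 had 260 CPM of Tpx2 (the others 211 to 218) and 147 CPM of Ube2c (118 to 122).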

How the results depend on the processing

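For the 13 named members in 9 comparisons of times, 3771 results under an alternative kept their direction and side of the threshold, 91 gained a call, 233 lost one and 0 reversed; the following counts moved by over 1.5 times, and the cause was not tested. Pairs are members higher and lower. The shares of all genes moved between settings too, so that a moved count is not by itself a change in the members. Over both constructs at 3 h against 1 h, 15.6% of all genes were higher and 12.9% lower with TMM scaling and no block. With scaling by library totals it was 27.6% and 6.24%, and with the replicate block 32.3% and 30.6%. With scaling by library totals, EIF2A libraries gave 14 and 6 at 3 h against 0 h and 3 and 4 at 3 h against 1 h, GFP libraries 13 and 5, then 5 lower, and both constructs 17 and 7, then 3 and 8; members with a rise and a fall were 0, 0 and 1 in EIF2A, GFP and both, and 12 were lower in EIF2A against GFP over the 3 times. With DESeq2's size factors in edgeR, 0 rose between 1 and 3 h in EIF2A and in GFP libraries, and 2 rose and fell in EIF2A. Without the filter on low counts, 0 rose between 1 and 3 h in either construct, GFP gave 7 and 0 at 1 h, both constructs gave 2 lower at 1 h, and 0 (EIF2A) and 1 (GFP) rose and fell. DESeq2's Wald test gave 2 lower at 1 h in each construct, 4 with a rise and a fall in EIF2A, and 2 higher at 3 h against 1 h over both. With the length trend removed, 0 rose between 1 and 3 h in either construct, and 2 were lower in EIF2A against GFP.

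With the replicate block, EIF2A gave 22 and 7 at 1 h and 3 and 22 at 3 h against 1 h, GFP gave 7 lower at 1 h, 14 higher at 3 h and 26 lower at 3 h against 1 h, and both constructs gave 8 lower at 1 h and 2 and 28 at 3 h against 1 h. Under the block 10, 12 and 16 members rose and fell in EIF2A, GFP and both, and 11 were lower in EIF2A against GFP. With the replicate block and without replicate 1, an alternative chosen after seeing the data, EIF2A gave 19 and 11 at 1 h, 18 lower at 3 h and 4 and 26 at 3 h against 1 h; GFP gave 24 and 8, 12 and 17, and 31 lower; both constructs gave 11 lower at 1 h and 2 and 31 at 3 h against 1 h; 12, 16 and 18 rose and fell; EIF2A against GFP gave 19 and 17, and the interactions 4, 3 and 3.

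Leaving out 1 replicate number or 1 library, the counts ran as follows. The share of all genes moved as well: over both constructs at 1 h, 26.4% rose without replicate 1 and 5.17% without replicate 3. For EIF2A at 1 h they were 3 to 15 higher and 0 to 9 lower, at 3 h 4 to 10 and 6 to 16, and at 3 h against 1 h 0 to 1 and 2 to 21. For GFP they were 2 to 20 and 0 to 7, then 3 to 10 and 5 to 16, then 0 to 1 and 2 to 28. For both constructs they were 11 to 20 and 0 to 8, then 7 to 12 and 9 to 17, then 1 to 2 and 9 to 27. A rise and a fall was called for 0 to 6 members in EIF2A, 0 to 12 in GFP and 1 to 12 over both, EIF2A against GFP over the 3 times gave 0 to 18 and 0 to 16, and the interactions 0 throughout. The highest count, or one tied with it, came without replicate 1, except for higher members over both constructs at 3 h (12 without replicate 2 of GFP at 3 h).

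Single calls that were lost include, with scaling by library totals, the fall between 1 and 3 h of Mki67 (adjusted p = 0.29) and Plk1 (0.106), and the fall of Ccna2 at 1 h (0.0632). What depth limits was not tested; the lowest count of a member in a library was 357.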
